A study of Arabidopsis thaliana with 27 samples.

Results

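The core and linker histone genes of Arabidopsis were followed through RNA-seq libraries of epi-lines and WT plants. The members were listed by histone family and locus identifier with earlier results of these data known, and came to 44 genes of the 33977 genes counted. They comprised 27 replication-dependent copies (8 H4, 5 H3.1, 10 H2B and 4 core H2A), 14 variant copies (3 H3.3, 1 CENH3, 1 H2B.8, 2 H2A.X, 3 H2A.W and 4 H2A.Z) and 3 linker H1 genes. Epi-lines are MSH1-carrying progeny of crosses between Col-0 WT and an msh1 T-DNA mutant used as pollen parent, propagated by selfing. MSH1 encodes a protein of plastids and mitochondria, and its loss alters growth and DNA methylation. Epi 8 and Epi 24 descend from the same cross and Epi 10 from another, so that each line is a single family, and all groups share the Col-0 background. The 27 libraries form 9 groups of 3 plants: leaf at bolting of Epi 8, Epi 10 and WT (4 weeks old for Epi 8 and WT, with the age of Epi 10 not given in the sources used here), root of Epi 8, Epi 24 and WT after 10 days on medium, and floral stem of Epi 8, Epi 24 and WT at 6 weeks.

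Total counts per library were 48098795 to 90808615 in leaf, 18524351 to 20041205 in root and 18465252 to 21219383 in floral stem, and histone genes took 0.157 to 0.407% of them. The photosynthesis genes RBCS1A, CAB2 and RBCS3B, listed as leaf markers, had 449 CPM or more in every leaf and floral stem and at most 177 CPM in every root. Of the root markers, TIP2;3 and MYB66 had 9.67 CPM or more in every root and at most 3.80 CPM elsewhere, whereas SCR did not mark root, with 25.8 to 37.2 CPM in leaf, 24.2 to 35.5 CPM in root and 12.2 to 21.1 CPM in floral stem. Of the 5 flower markers, AP1 alone marked floral stem, with 1.18 to 7.46 CPM there and at most 0.0537 CPM elsewhere. LFY had 0 CPM in every floral stem, AG had 0 CPM in 8 of 9 floral stems and 0.659 to 1.51 CPM in leaf, and PI and AP3 had at most 0.813 and 0.208 CPM in floral stem, against up to 6.50 and 1.77 CPM in root. Of the pollen markers, VGD1 and VGDH1 had 5.47 to 48.3 CPM in floral stems and at most 0.249 CPM elsewhere, and MGH3 had at most 0.361 CPM in floral stems and 0 CPM elsewhere. The part of floral tissue in the floral stem values was not tested. Levels are CPM, counts relative to library size after TMM scaling within an organ, unless stated otherwise. A gene counts as called where edgeR's quasi-likelihood test passed an FDR of 0.05 (Benjamini-Hochberg, all tested genes) and its log2FC, the log2 fold change, was 0.5 or more in size.

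Nucleosomes wrap DNA around H2A, H2B, H3 and H4, and H1 binds the linker DNA between them. Replication-dependent histones are made mainly in S phase to package newly copied DNA, with H3.1 deposited by the chaperone CAF-1. Variants replace them at other times or sites: H3.3 is enriched at transcribed genes, CENH3 marks centromeres, H2A.X is phosphorylated at DNA breaks, H2A.W marks heterochromatin and H2A.Z is placed at genes by the SWR1 complex. Plant histone mRNAs are polyadenylated, so that a poly(A) library reads them. In bulk tissue, fewer dividing cells and less histone mRNA per cell cannot be told apart.

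Plant histone promoters are known for an octamer, CGCGGATC, and a hexamer, ACGTCA. Both were searched on both strands from 250 bases before to 50 bases after the annotated start of each gene in RefSeq TAIR10.1. The octamer was found in 40 of 27443 windows of protein-coding genes (0.146%) and in 10 of 44 histone windows (22.7%), among them 3 of 5 H3.1, 2 of 4 core H2A, 2 of 8 H4 and 0 of 10 H2B windows. The hexamer was found in 9.19% of all windows and in 13 of 44 histone windows (29.5%), among them 9 of 10 H2B windows. A match describes letters and not a bound site. The windows of the 3 genes called in Epi 8 leaf are shown with that of AT1G09200, an H3.1 gene with 2 octamers, to place these letters beside the measurements. Octamers and hexamers on either strand are in capitals. The windows lie at chr5:3270908-3271207 (minus strand) for AT5G10400, chr3:10129888-10130187 (minus strand) for AT3G27360, chr1:2412688-2412987 (plus strand) for HTB1 and chr1:2972285-2972584 (minus strand) for AT1G09200.
AT5G10400: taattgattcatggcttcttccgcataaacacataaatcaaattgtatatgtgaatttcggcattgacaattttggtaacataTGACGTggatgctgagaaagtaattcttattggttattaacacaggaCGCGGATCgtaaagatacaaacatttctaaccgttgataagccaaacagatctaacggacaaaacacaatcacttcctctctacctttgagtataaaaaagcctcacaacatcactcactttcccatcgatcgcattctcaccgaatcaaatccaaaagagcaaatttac
AT3G27360: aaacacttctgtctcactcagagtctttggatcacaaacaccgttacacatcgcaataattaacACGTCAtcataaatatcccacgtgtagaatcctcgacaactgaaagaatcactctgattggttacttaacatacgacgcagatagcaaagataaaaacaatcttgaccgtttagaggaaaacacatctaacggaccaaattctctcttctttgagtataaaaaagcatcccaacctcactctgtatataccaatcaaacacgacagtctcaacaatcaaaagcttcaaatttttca
HTB1: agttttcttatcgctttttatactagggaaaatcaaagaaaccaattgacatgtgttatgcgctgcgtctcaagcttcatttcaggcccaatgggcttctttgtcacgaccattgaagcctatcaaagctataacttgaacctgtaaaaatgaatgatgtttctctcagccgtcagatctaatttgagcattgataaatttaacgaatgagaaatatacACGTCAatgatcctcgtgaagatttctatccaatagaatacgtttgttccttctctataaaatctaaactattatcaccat
AT1G09200: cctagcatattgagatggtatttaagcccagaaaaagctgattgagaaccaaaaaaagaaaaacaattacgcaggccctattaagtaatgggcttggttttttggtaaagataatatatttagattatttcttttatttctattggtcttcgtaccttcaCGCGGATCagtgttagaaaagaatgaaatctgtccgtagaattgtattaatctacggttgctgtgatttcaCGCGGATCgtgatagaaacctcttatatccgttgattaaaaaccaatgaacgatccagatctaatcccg
AT5G10400 held 1 octamer and 1 hexamer, AT3G27360 and HTB1 each held 1 hexamer, and AT1G09200 held 2 octamers.

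Of the 44 genes, 42 passed the filter on low counts in every comparison. AT1G08170, which codes for H2B.8, had at most 5 reads in any library, and HTA4, an H2A.Z copy, had 1 read in 1 library and 0 in the others. The floor of 3 counts was 0.0330 to 0.0624 CPM in leaf, 0.150 to 0.162 CPM in root and 0.141 to 0.162 CPM in floral stem, and lower levels were not detectable at this depth. Histone copies resemble each other, yet all 150-base windows of their exons were unique in the genome for the 42 members other than AT3G45930 (98.0%) and AT3G46320 (97.8%), both H4 genes. AT3G27360 shares 328 exon bases on the same strand with AT3G27380. AT5G02570, an H2B gene of 522 exon bases, lies entirely opposite the H2A.W gene HTA12, and GAMMA-H2AX (499 bases), the H1 gene AT1G06760 (486 bases) and HTB9 (271 bases) also face exons of other genes. Whether the counting used strand is not given in the sources used here, so the values of these facing genes are uncertain. Strand cannot separate AT3G27360 from AT3G27380, so the values of AT3G27360 are uncertain under either setting.

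The replication-dependent and variant sums of every WT root were above those of every WT leaf and floral stem, while leaf and floral stem overlapped in both classes and the linker sums overlapped in all 3 organs. On a scale common to all 27 libraries, the replication-dependent genes summed to 1381 ± 162 CPM per kb of exon in leaf, 1826 ± 34.5 in root and 967 ± 252 in floral stem (SD, n = 3 each). The variants summed to 794 ± 42.4 CPM per kb in leaf, 1027 ± 42.7 in root and 829 ± 108 in floral stem. The linker genes summed to 238 ± 26.5 CPM per kb in leaf, 231 ± 35.0 in root and 228 ± 66.9 in floral stem, with ranges of 210.0 to 263, 202 to 270.3 and 169 to 301 in that order. WT root against WT floral stem had 26 of 42 members called higher and 1 called lower, beside 28.7% of all tested genes higher and 32.2% lower. Those higher comprised 19 of 27 replication-dependent copies, among them 7 of 8 H4 and 4 of 5 H3.1 genes. WT leaf against WT root had 4 members higher and 23 lower, beside 32.7% and 35.9% of all genes. WT leaf against WT floral stem had 15 higher and 9 lower, beside 29.1% and 31.2%. Organ, age and growth conditions cannot be told apart in these comparisons, nor can sequencing depth in those with leaf.

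The balance of H3.1 and H3.3 differed between organs. H3.1 made up 34.3% ± 1.16 of H3 transcripts per kb in WT leaf, 39.3% ± 1.09 in WT root and 20.2% ± 8.36 in WT floral stem (SD, n = 3 each). The plants of the 3 organs did not overlap, with 33.0 to 35.2% in leaf, 38.2 to 40.3% in root and 12.3 to 28.9% in floral stem. The H3.1 gene AT1G09200 had 77.3, 74.4 and 60.2 CPM in leaf, 74.0, 79.5 and 81.2 CPM in root, and 34.7, 15.5 and 10.5 CPM in floral stem, on the common scale that is used for all organ values. By edgeR it was higher in root than in floral stem (log2FC 1.95, SE 0.339, FDR = 2.84e-05) and higher in leaf than in floral stem (log2FC 1.80, SE 0.337, FDR = 7.08e-05). AT3G27360, the H3.1 gene with an overlapping neighbour, had another pattern, with 0.888, 1.70 and 1.26 CPM in leaf, 8.25, 9.26 and 7.22 CPM in root, and 9.60, 5.08 and 4.85 CPM in floral stem. It was lower in leaf than in root (log2FC -2.68, SE 0.418, FDR = 5.18e-06) and than in floral stem (log2FC -2.34, SE 0.416, FDR = 3.83e-05). The 3 H3.3 genes differed too. AT4G40030 had 254, 255 and 233 CPM in leaf, against 119.6, 131 and 126 CPM in root (log2FC 0.98, SE 0.146, FDR = 2.77e-06), and was also higher in leaf than in floral stem (log2FC 0.91, SE 0.146, FDR = 1.14e-05). AT5G10980 was lower in leaf than in root (log2FC -0.70, SE 0.147, FDR = 0.000204), and AT4G40040 lower in leaf than in floral stem (log2FC -0.55, SE 0.131, FDR = 0.000889). HTR12, which codes for CENH3, was lower in leaf than in root (log2FC -1.83, SE 0.269, FDR = 2.25e-06) and higher in root than in floral stem (log2FC 1.49, SE 0.273, FDR = 5.09e-05).

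**Figure D1:**
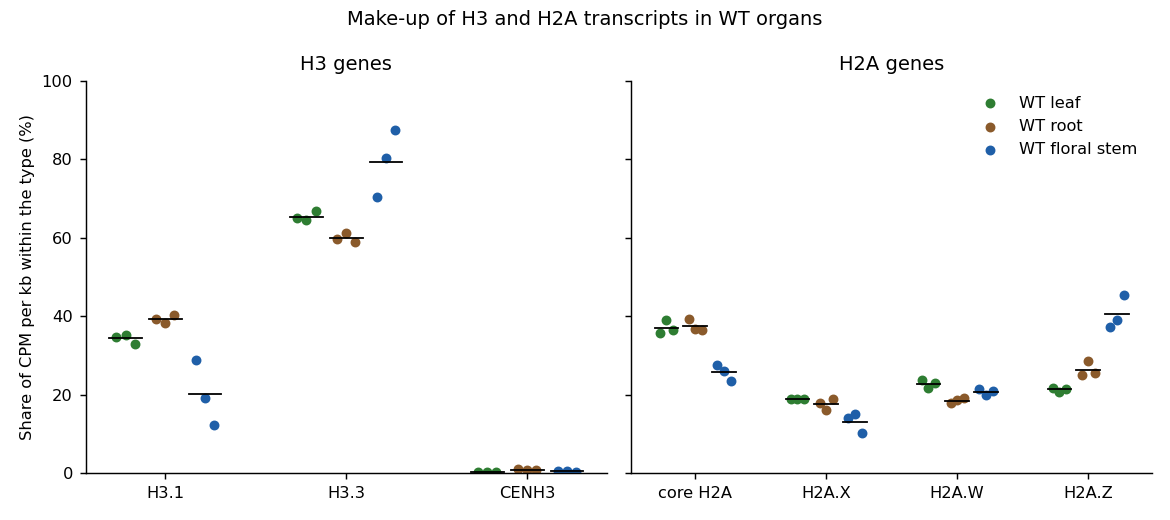
Share of each form among the H3 genes and among the H2A genes in WT leaf, root and floral stem, in percent of the summed CPM per kb of exon (n = 3 plants each). H3.1 averaged 34.3% ± 1.16 in leaf, 39.3% ± 1.09 in root and 20.2% ± 8.36 in floral stem, and H2A.Z 21.3% ± 0.584, 26.4% ± 1.94 and 40.5% ± 4.37 (SD).

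H2A.Z made up 21.3% ± 0.584 of H2A transcripts per kb in WT leaf, 26.4% ± 1.94 in WT root and 40.5% ± 4.37 in WT floral stem, and the ranges were 20.6 to 21.7%, 25.0 to 28.6% and 37.1 to 45.4% in the same order. The H2A.Z gene HTA11 had 13.8, 14.5 and 10.6 CPM in leaf, 67.2, 79.3 and 67.4 CPM in root, and 36.1, 17.7 and 18.0 CPM in floral stem. It was lower in leaf than in root (log2FC -2.46, SE 0.297, FDR = 1.22e-07) and higher in root than in floral stem (log2FC 1.57, SE 0.291, FDR = 5.87e-05). HTA9, another H2A.Z gene, was lower in leaf than in floral stem (log2FC -0.98, SE 0.152, FDR = 6.54e-06). Of the H2A.W genes, HTA6 was higher in leaf than in floral stem (log2FC 1.25, SE 0.294, FDR = 0.000791), whereas HTA7 (log2FC -0.78, SE 0.140, FDR = 4.12e-05) and HTA12 (log2FC -1.59, SE 0.258, FDR = 1.25e-05) were lower. The core H2A gene HTA13 had 72.6, 63.3 and 60.6 CPM in root against 22.8, 15.8 and 12.2 CPM in floral stem (log2FC 1.95, SE 0.189, FDR = 5.78e-09).

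Single H4 and H2B copies stood apart by organ. AT5G59970 (H4) had 46.7, 52.3 and 55.9 CPM in root against 15.9, 12.5 and 9.51 CPM in floral stem (log2FC 2.03, SE 0.211, FDR = 1.81e-08). AT3G09480, an H2B gene of low level, had 4.19, 6.70 and 2.92 CPM in root against 1.27, 1.02 and 0.363 CPM in floral stem (log2FC 2.37, SE 0.447, FDR = 7.38e-05), and was lower in leaf than in root (log2FC -2.24, SE 0.425, FDR = 6.15e-05). AT2G28720 (H2B) had 86.4, 95.8 and 95.0 CPM in leaf, 17.3, 19.9 and 16.4 CPM in root, and 18.5, 16.3 and 18.1 CPM in floral stem. It was higher in leaf than in root (log2FC 2.37, SE 0.233, FDR = 4.49e-09) and than in floral stem (log2FC 2.39, SE 0.234, FDR = 9.35e-09), while root and floral stem overlapped. AT5G02570, which faces HTA12, had 0.679, 0.726 and 0.462 CPM in leaf against 1.65, 1.24 and 2.60 CPM in floral stem (log2FC -1.55, SE 0.624, FDR = 0.0334). That call was lost without any 1 of the WT leaf plants (FDR = 0.0562 to 0.106) or without WT floral stem plant 3 (FDR = 0.135). The call was also lost in a fit of only the 9 WT libraries (edgeR FDR = 0.0745). Between root and floral stem AT5G02570 was not called (log2FC -0.80, SE 0.624, FDR = 0.263). It was called lower in root without WT root plant 2 (log2FC -2.01, FDR = 0.0122). HTA12 was not called between root and floral stem (log2FC -0.56, SE 0.254, FDR = 0.0555), and was called lower in root without WT floral stem plant 1 (log2FC -0.83, FDR = 0.00539).

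HIS1-3 is the linker histone gene known to respond to drought. It had 33.0, 49.2 and 45.1 CPM in WT leaf, 2.50, 11.4 and 8.03 CPM in WT root, and 1.05, 1.92 and 6.36 CPM in WT floral stem, and was higher in leaf than in floral stem (log2FC 3.78, SE 0.895, FDR = 0.000808) and than in root (log2FC 2.53, SE 0.821, FDR = 0.00845). AT2G30620, another H1 gene, had 93.5, 125 and 95.9 CPM in root against 158, 115 and 250.3 CPM in floral stem (log2FC -0.74, SE 0.192, FDR = 0.00188). Without WT floral stem plant 3 its log2FC was -0.38, under the fold limit. In a fit of only the 9 WT libraries AT2G30620 was not called (edgeR FDR = 0.0502).

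Epi 8 leaf against WT leaf was the 1 line comparison with called members. It had 3 of 42 called, all lower in Epi 8 leaf, beside 0.773% of all 20052 tested genes called lower and 0.953% called in either direction. AT5G10400, an H3.1 gene, had 16.6, 15.7 and 17.8 CPM in Epi 8 leaf, against 22.9, 26.2 and 22.4 CPM in WT leaf (edgeR log2FC -0.51, SE 0.102, FDR = 0.0498). All Epi 8 plants were below all WT plants, and the Epi 10 leaves, at 19.5, 17.5 and 17.0 CPM, were below WT too. AT3G27360, the H3.1 gene whose exon overlaps AT3G27380, had 0.114, 0.167 and 0.189 CPM (8, 12 and 9 reads) in Epi 8 leaf, against 0.775, 1.48 and 1.10 CPM (68, 110 and 82 reads) in WT leaf (edgeR log2FC -2.84, SE 0.447, FDR = 0.0277). The Epi 10 leaves had 0.629, 1.14 and 0.492 CPM and overlapped with WT. Its neighbour AT3G27380 had 37.0 ± 8.88 CPM in Epi 8 leaf and 37.5 ± 2.35 CPM in WT leaf (SD, n = 3 each; edgeR log2FC -0.02, SE 0.149, FDR = 0.948). HTB1, an H2B gene, had 14.4, 13.2 and 12.8 CPM in Epi 8 leaf, against 19.5, 23.8 and 20.2 CPM in WT leaf (edgeR log2FC -0.66, SE 0.127, FDR = 0.0478), without overlap.

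**Figure D2:**
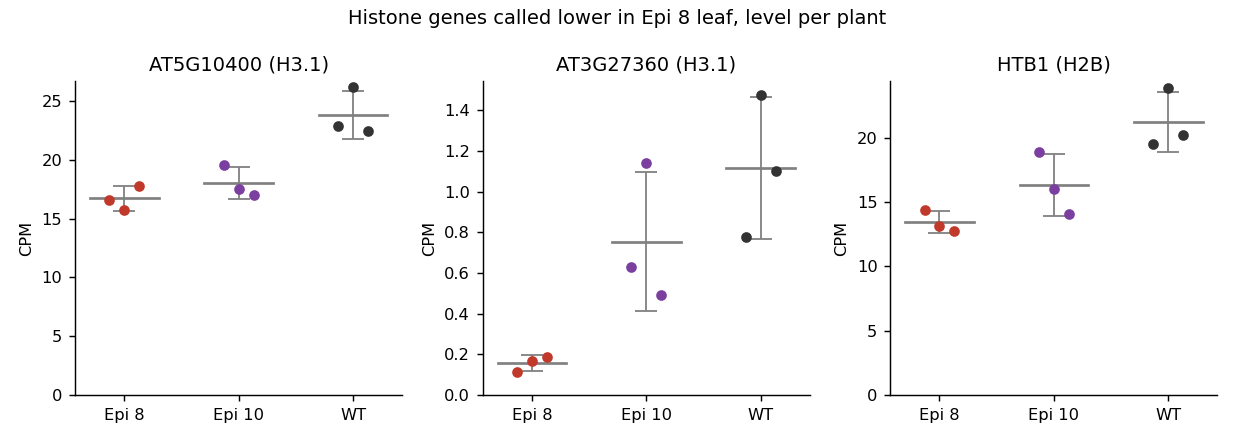
Level in CPM of the 3 histone genes called lower in Epi 8 leaf, for each Epi 8, Epi 10 and WT leaf plant, with mean and SD (n = 3 each). The Epi 8 points lie below all WT points in each panel, as in HTB1 with 14.4, 13.2 and 12.8 CPM in Epi 8 against 19.5, 23.8 and 20.2 CPM in WT.

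These calls changed when single plants were left out, in fits that also hold fewer plants. No member was called without Epi 8 leaf plant 1 or 2, or without WT leaf plant 1 or 2, while 4 were called without Epi 8 leaf plant 3 and 2 without WT leaf plant 3. AT5G10400 and HTB1 lost their calls whichever plant was left out. Their edgeR FDRs were 0.0545 and 0.0769 without Epi 8 leaf plant 3, and 0.0595 and 0.0620 without WT leaf plant 3. Of the 3 genes, AT3G27360 alone stayed called without either of these plants. With a plant left out, the log2FC ranged over -3.04 to -2.58 for AT3G27360. It ranged over -0.56 to -0.44 for AT5G10400 and -0.71 to -0.56 for HTB1. The shares of all genes called in these fits are not given here, so the counts are not set against all genes. DESeq2 called 15 members and edgeR's likelihood ratio test 13, all lower and including these 3, beside 2.9% and 3.18% of all genes with a p-value.

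Most other members were lower without being called. Of the 42 tested, 40 had a negative log2FC, while 51% of all tested genes had a positive one, and the median was -0.43 against 0.01 over all tested genes. The exceptions were HIS1-3 (0.01, SE 0.385) and HTA12 (0.03, SE 0.151). In 24 members all Epi 8 leaves were below all WT leaves and in 0 above, whereas the groups did not overlap, in either direction, in 25.7% of all tested genes. Of the replication-dependent copies, 27 of 27 had a negative log2FC (median -0.52), and in 19 of them the groups did not overlap. The median was -0.23 for the variants and -0.11 for the linker genes. At an unadjusted p under 0.05 there were 27 members, all lower, beside 20.3% of all genes.

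By family, the H4 genes summed to 179 CPM in Epi 8 leaf and 259 CPM in WT leaf (log2 ratio -0.54), the H3.1 genes to 118 against 164 CPM (-0.47), and the H2B genes to 368 against 474 CPM (-0.36), each without overlap of the plants. The core H2A genes summed to 114 CPM in Epi 8 leaf and 128 CPM in WT leaf (-0.16), with overlap. Among the variants, the H2A.W sum was 63.4 against 84.1 CPM (-0.41) and the H2A.X sum 65.7 against 80.0 CPM (-0.28), both without overlap, while H2A.Z (-0.22) and H3.3 (-0.16) overlapped. Differences between families were not tested. The H2A.W gene HTA6 had 32.7, 23.5 and 37.1 CPM in Epi 8 leaf, against 57.3, 51.8 and 45.7 CPM in WT leaf (edgeR log2FC -0.73, SE 0.172, FDR = 0.0694), while HTA7 had a log2FC of -0.02. The H4 gene AT3G45930 had 10.0, 8.80 and 11.9 CPM in Epi 8 leaf, against 17.2, 21.6 and 13.9 CPM in WT leaf (edgeR log2FC -0.78, SE 0.175, FDR = 0.0600). The H4 gene AT3G53730 had 19.8, 13.3 and 20.8 CPM in Epi 8 leaf, against 26.0, 38.2 and 28.6 CPM in WT leaf (edgeR log2FC -0.79, SE 0.178, FDR = 0.0625). The H2B gene AT3G53650 had 1.79, 1.39 and 2.43 CPM in Epi 8 leaf, against 3.61, 4.39 and 2.53 CPM in WT leaf (edgeR log2FC -0.92, SE 0.256, FDR = 0.102). None of these 4 genes overlapped between the groups and none was called.

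**Figure D3:**
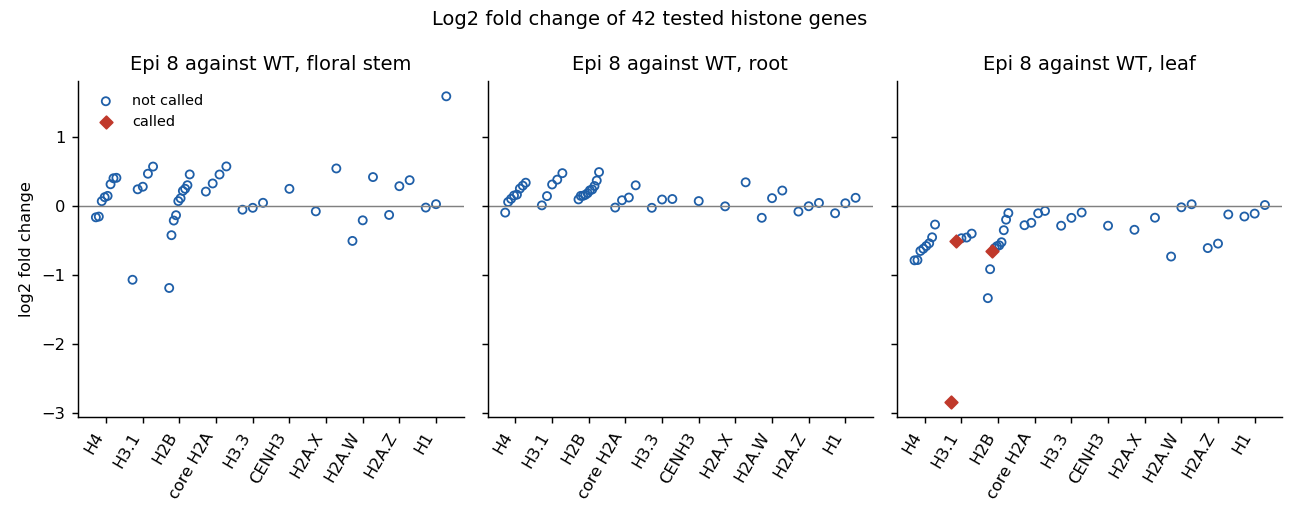
Log2FC of the 42 tested histone genes in Epi 8 against WT in floral stem, root and leaf, grouped by family, with called genes as red diamonds and the others as open circles. In leaf 40 of 42 values are below 0, and in root 34 of 42 are above 0.

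The summed replication-dependent genes had 792, 719 and 828 CPM in Epi 8 leaf, 918, 857 and 849 CPM in Epi 10 leaf, and 989.6, 1149 and 936 CPM in WT leaf. All leaves of both lines were below all WT leaves, with log2 ratios to WT of -0.39 for Epi 8 and -0.23 for Epi 10. Without WT leaf plant 2, the highest, the ratio was -0.30 for Epi 8 and -0.14 for Epi 10. The variant sums were 721, 593 and 686 CPM in Epi 8 leaf, 676, 723 and 714 CPM in Epi 10 leaf, and 804, 781 and 718 CPM in WT leaf. The H3.1 share of H3 per kb was 30.0% ± 2.29 in Epi 8 leaf, 31.8% ± 2.76 in Epi 10 leaf and 34.3% ± 1.16 in WT leaf (SD, n = 3 each).

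**Figure D4:**
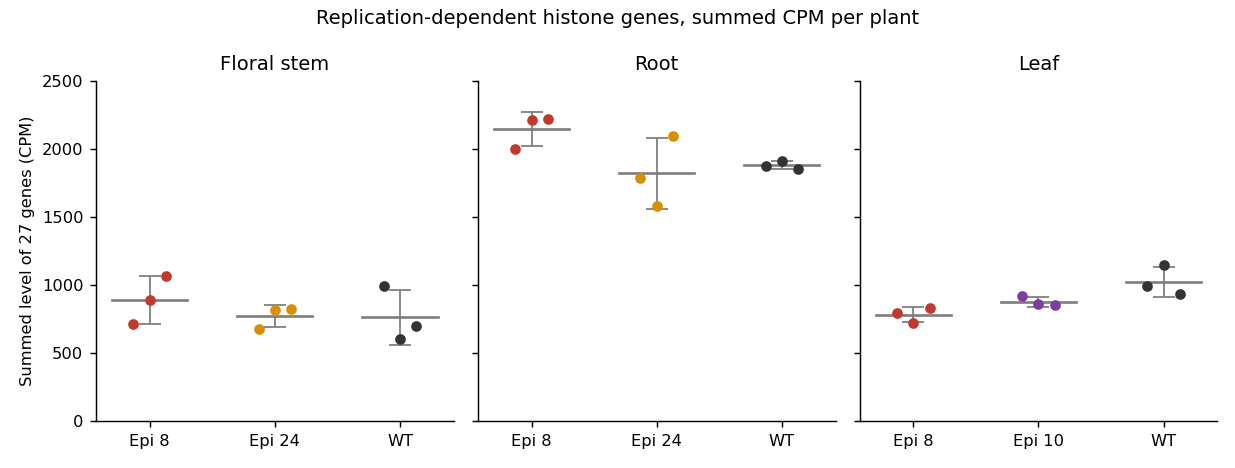
Summed CPM of the 27 replication-dependent histone genes in each plant, with mean and SD (n = 3 each), scaled separately in floral stem, root and leaf. Epi 8 lies below WT in leaf (792, 719 and 828 against 989.6, 1149 and 936 CPM) and above it in root (2002, 2215 and 2222 against 1877, 1909.6 and 1852 CPM).

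Epi 10 leaf against WT leaf had 0 members called by edgeR's quasi-likelihood test, its likelihood ratio test or DESeq2, with 0% of all genes called by the first. The median was -0.25, 39 of 42 were negative (47.4% of all genes were positive), and 6 had an unadjusted p under 0.05, all lower, beside 7.03% of all genes. In 6 members all Epi 10 leaves were below all WT leaves, beside 13.8% of all genes without overlap. These were HIS4 (-0.43, SE 0.106), AT5G10400 (-0.40, SE 0.101), AT5G65360 (-0.25, SE 0.116), HTB1 (-0.38, SE 0.126), HTB4 (-0.14, SE 0.0860) and H2AXA (-0.25, SE 0.116), as log2FC. The H4 gene AT5G59970 had an edgeR log2FC -0.53, SE 0.176, FDR = 0.683, and the H2B gene AT3G53650 had an edgeR log2FC -0.42, SE 0.251, FDR = 0.700. Epi 8 and Epi 10 share the WT leaves, so their values against WT are not independent. Epi 8 leaf against Epi 10 leaf had 0 members called by edgeR's quasi-likelihood test (0% of all genes). It had 1 each called by the likelihood ratio test and DESeq2, with the shares of all genes by these tests not given here. There 38 of 42 were negative with a median of -0.16, and 9 had an unadjusted p under 0.05, whereas 53.5% of all genes were positive and 7.08% had such a p. In 10 members the groups did not overlap, beside 13.7% of all genes. AT3G45930 had an edgeR log2FC -0.52, SE 0.175, FDR = 0.637. AT3G53730 had an edgeR log2FC -0.50, SE 0.178, FDR = 0.652, and AT3G53650 an edgeR log2FC -0.50, SE 0.256, FDR = 0.753.

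Lists of DNA replication, mitotic and chaperone genes were read beside the histone genes. In Epi 8 leaf 0 of 14 DNA replication genes were called and 14 of 14 were negative (median log2FC -0.22). Of these 14 genes 2 had an unadjusted p under 0.05, beside 20.3% of all tested genes. Their sums were 448, 475 and 405 CPM in Epi 8 leaf, against 568, 499 and 463 CPM in WT leaf, and overlapped. Of the 11 mitotic genes 0 were called, 11 were negative (median -0.61) and 5 had an unadjusted p under 0.05, beside the same 20.3%. Their sums were 28.2, 27.1 and 18.7 CPM in Epi 8 leaf, against 38.4, 32.6 and 29.9 CPM in WT leaf, without overlap. With a plant left out, the log2 ratio of these sums to WT ranged over -0.27 to -0.12 for the DNA replication genes and -0.55 to -0.28 for the mitotic genes. The 7 chaperone genes of H2A and H2B had a median of -0.26 and the 7 of H3 and H4 of -0.08, the E2F and RBR genes of -0.02 and the genes of H2A.Z deposition of -0.14, with 0 called in these lists. Chosen after their values were seen, PCNA1, the replication clamp, had an edgeR log2FC -0.77, SE 0.198, FDR = 0.0854 and NAP1;1, a chaperone of H2A and H2B, an edgeR log2FC -0.46, SE 0.0995, FDR = 0.0546. The part of the share of dividing cells in these values was not tested.

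The replication-dependent histone sum relative to the DNA replication sum was 1.78 ± 0.265 in Epi 8 leaf, 1.83 ± 0.117 in Epi 10 leaf and 2.02 ± 0.280 in WT leaf, and it was 4.15 ± 0.176 in WT root and 5.32 ± 1.18 in WT floral stem (SD, n = 3 each). In WT leaf against WT floral stem 14 of 14 DNA replication genes were called higher, whereas 8 of 11 mitotic genes were called lower. Of all tested genes 29.1% were called higher and 31.2% lower there. In WT leaf against WT root 11 of 11 mitotic genes were called lower (median -2.46), beside 35.9% of all tested genes.

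**Figure D5:**
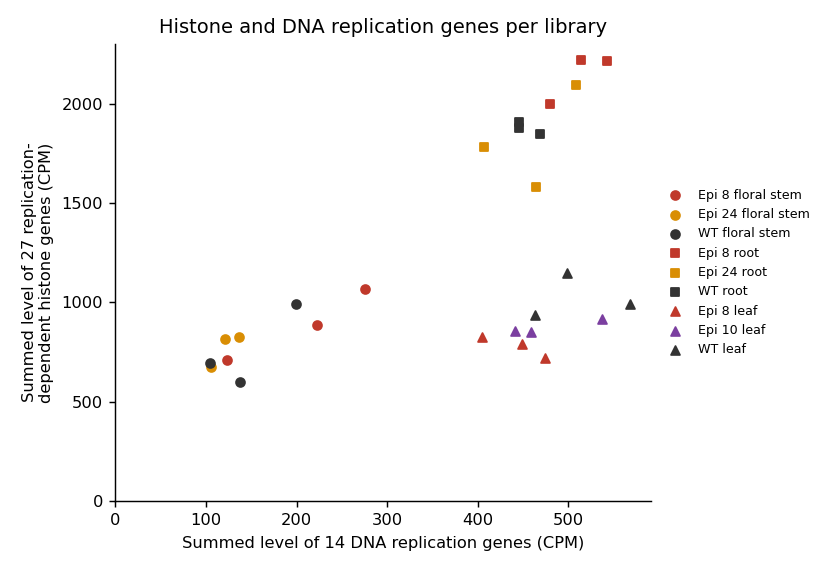
Summed CPM of the 27 replication-dependent histone genes against that of 14 DNA replication genes, 1 point per library, with each organ scaled on its own, so that positions are to be read within an organ. WT leaf lies at 989.6, 1149 and 936 CPM of histone genes and 568, 499 and 463 CPM of DNA replication genes.

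In root, Epi 8 against WT had 0 members called by edgeR's quasi-likelihood test, its likelihood ratio test or DESeq2, with 0% of all genes called by the first. Of the 42 tested, 34 were positive with a median of 0.13 (49.9% of all genes were positive), and 5 had an unadjusted p under 0.05, all higher, beside 5.6% of all genes. Of the replication-dependent copies, 25 of 27 were positive (median 0.17). In 9 members, all replication-dependent, every Epi 8 root was above every WT root, beside 13.3% of all genes without overlap. The H3.1 gene AT5G10390 had 34.0, 30.8 and 34.9 CPM in Epi 8 root, against 22.5, 22.0 and 27.1 CPM in WT root (edgeR log2FC 0.48, SE 0.149, FDR = 0.748). AT1G09200, the H3.1 gene with 2 octamers, had 115, 135 and 132 CPM in Epi 8 root, against 92.6, 98.7 and 102 CPM in WT root (edgeR log2FC 0.38, SE 0.134, FDR = 0.821). The H2B gene AT3G53650 had 18.7, 23.1 and 25.7 CPM in Epi 8 root, against 13.7, 16.6 and 17.7 CPM in WT root (edgeR log2FC 0.49, SE 0.178, FDR = 0.847). The class sums did not overlap, with 2002, 2215 and 2222 CPM in Epi 8 root against 1877, 1909.6 and 1852 CPM in WT root, and of the families H3.1 had the largest log2 ratio (0.31). Of the mitotic genes 11 of 11 were positive (median 0.26) and of the DNA replication genes 11 of 14 (median 0.10), with 0 called.

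Epi 24 root against WT root had 0 members called by these 3 tests (0% of all genes by the first), 31 of 42 negative, a median of -0.05 and 0 members at an unadjusted p under 0.05. Of all genes 50.6% were positive and 6.91% had such a p. Its replication-dependent sums of 1783, 1581 and 2096 CPM overlapped with WT. AT3G53650 was the 1 member without overlap, with 11.5, 13.5 and 13.6 CPM in Epi 24 root below the WT values above (edgeR log2FC -0.31, SE 0.180, FDR = 0.773), beside 10.9% of all genes. AT3G27360 had an edgeR log2FC -0.57, SE 0.298, FDR = 0.752. AT5G02570 had an edgeR log2FC -0.70, SE 0.796, FDR = 0.894, and without WT root plant 2 its log2FC was 0.50. Epi 8 and Epi 24 share the WT roots. Epi 8 root against Epi 24 root had 0 members called by edgeR's quasi-likelihood test (0.0192% of all genes) or DESeq2, 38 of 42 positive (median 0.21) and 8 at an unadjusted p under 0.05. Of all genes 49.7% were positive and 11.4% had such a p, and 8 members did not overlap, beside 17% of all genes. AT3G53650 had an edgeR log2FC 0.81, SE 0.179, FDR = 0.225, and the likelihood ratio test called it. AT3G27360 had an edgeR log2FC 0.58, SE 0.298, FDR = 0.473, and AT5G02570 an edgeR log2FC 0.99, SE 0.795, FDR = 0.656.

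In floral stem the plants of a group differed widely. The replication-dependent sums were 712, 886 and 1066 CPM in Epi 8, 675, 814 and 824 CPM in Epi 24, and 990.0, 599 and 695 CPM in WT, and the groups overlapped. Against WT, 0 members were called in Epi 8 (0.0255% of all genes) and 0 in Epi 24 (0%) by edgeR's quasi-likelihood test, and 0 by its likelihood ratio test and DESeq2. At an unadjusted p under 0.05 there were 2 members in Epi 8, beside 8.82% of all genes, and 0 in Epi 24, beside 6.11%. In Epi 8 28 of 42 were positive (51.3% of all genes) and in Epi 24 19 (49.4%), and the medians were 0.18 and -0.01 in that order. In Epi 24 0 members did not overlap with WT, beside 9.9% of all genes. In Epi 8 the 1 member without overlap was AT3G27360, with 1.71, 2.99 and 3.95 CPM in Epi 8 floral stem, against 9.02, 4.64 and 4.49 CPM in WT floral stem (edgeR log2FC -1.07, SE 0.449, FDR = 0.534), beside 12.4% of all genes. In Epi 24 floral stem it had an edgeR log2FC -0.52, SE 0.442, FDR = 0.861. AT3G45930 had an edgeR log2FC -0.49, SE 0.456, FDR = 0.871 in Epi 24, and a log2FC of 0.10 without WT floral stem plant 1. HIS1-3 varied most between plants, with 19.2, 1.84 and 4.84 CPM in Epi 8, 2.19, 2.99 and 20.7 CPM in Epi 24, and 0.984, 1.75 and 5.90 CPM in WT floral stem. It had an edgeR log2FC 1.59, SE 1.08, FDR = 0.716 in Epi 8 and an edgeR log2FC 1.59, SE 1.08, FDR = 0.854 in Epi 24, where it was -0.16 without its plant 3. AT5G02570 had an edgeR log2FC -1.19, SE 0.670, FDR = 0.668 in Epi 8. The DNA replication genes were positive in 14 of 14 in Epi 8 floral stem (median 0.51) and negative in 14 of 14 in Epi 24 (median -0.33), with 0 called. Their sums were 123, 223 and 276 CPM in Epi 8, 105, 121 and 136 CPM in Epi 24 and 199, 137 and 105 CPM in WT floral stem, and each line overlapped with WT. The log2 ratio of the sums was -0.29 for Epi 24 and -0.00361 without WT floral stem plant 1, and for Epi 8 it ranged over 0.23 to 0.78 with a plant left out.

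Epi 8 against Epi 24 floral stem had 0 members called by edgeR's quasi-likelihood test (0.0153% of all genes) or DESeq2 and 0 at an unadjusted p under 0.05 (16.8% of all genes), with 28 of 42 positive (51.5% of all genes). The H2A.X gene GAMMA-H2AX had 14.4, 29.5 and 30.1 CPM in Epi 8 and 12.4, 13.9 and 17.6 CPM in Epi 24 (edgeR log2FC 0.75, SE 0.367, FDR = 0.327). The H2A.W gene HTA12 had 16.0, 8.56 and 15.6 CPM in Epi 8 and 20.7, 17.2 and 29.3 CPM in Epi 24 (edgeR log2FC -0.74, SE 0.345, FDR = 0.310), without overlap. The core H2A genes HTA2 and HTA10, the H4 gene AT3G53730 and HTB1 did not overlap either, with every Epi 8 plant above every Epi 24 plant. Over all genes, 26.2% did not overlap in this comparison. AT5G02570, opposite HTA12, had an edgeR log2FC -0.76, SE 0.671, FDR = 0.561.

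The Epi 8 effect was compared between organs in a fit of all 27 libraries. For leaf minus root, 0 members were called (0% of all genes), 40 of 42 values were negative (49.2% of all genes were positive), the median was -0.54, and 13 members had an unadjusted p under 0.05, beside 8.05% of all genes. AT3G27360 had the smallest FDR, with a difference of -2.85 (SE 0.612, edgeR FDR = 0.315). For leaf minus floral stem, 0 members were called (0.29% of all genes), 39 of 42 values were negative (49.9% of all genes were positive), the median was -0.61 and 17 had an unadjusted p under 0.05, beside 12.4% of all genes. The count of calls depended on single floral stem plants, with 16 members called without WT plant 1 and 6 without Epi 8 plant 1. The shares of all genes called in these fits are not given here, so these counts are not set against all genes. For floral stem minus root, 0 members were called for Epi 8 (0.316% of all genes) and 0 for Epi 24 (0%), with 1 and 0 at an unadjusted p under 0.05. Of the 42 values, 19 were positive for Epi 8 (47.5% of all genes) and 26 for Epi 24 (49.3%). DESeq2 and the likelihood ratio test were not run on these differences.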

How the data were processed

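Polyadenylated RNA of 27 plants was sequenced as 150-base paired reads, and the authors deposited raw counts per gene, made by trimming, unique alignment with STAR 2.7.3a to TAIR10 and counting with QoRTs, before their own tests in edgeR 3.26.8. The tables held 0 columns without a sample. Reads of no feature and ambiguous reads (0.254 to 0.987%) were left out, and reads shared by overlapping genes can be lost this way. Reads of no feature were 0.681 to 0.995% in leaf, 3.93 to 6.17% in root and 4.50 to 5.94% in floral stem. Counts were filtered with filterByExpr, TMM-scaled and tested over all genes with the quasi-likelihood test of edgeR 4.0.16 (R 4.3.3), with Benjamini-Hochberg adjustment, in the 9 libraries of an organ for lines, and in all 27 for WT organs and for differences between effects. The script was tested on simulated data. Plants are the replicates, so that SDs and SEs include the variation between plants, while the floors cover counting error only.

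The members and lists were chosen with earlier results of these data known. Named were the members called in a line comparison, of the rest the 3 largest log2FC by size at a mean of at least 1 CPM, and in organ comparisons the 3 largest each way. Other members and list genes were chosen after their values were seen. Deviations of same-numbered plants correlated above 0.1 in every pair only between Epi 8 and Epi 24 floral stem (0.257, 0.121, 0.221), where any pairing by number rests on the data alone. Pooled over plants, the correlation was 0.206 there and 0.238 between Epi 8 and WT leaf. Alternatives were RLE scaling, other low-count filters, DESeq2 1.42.0, the likelihood ratio test, a plant block, fewer libraries and leaving out each plant. Leaving out plants for sums of list genes and for differences between effects was chosen after seeing the data. Gene coordinates matched TAIR10.1 in 1873 of 1873 compared genes.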

Additional observations from a re-analysis of the deposited data

Results flagged for a closer look

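In 8 replication-dependent genes every Epi 8 leaf was below every WT leaf while every Epi 8 root was above every WT root, and this opposite direction is why they are listed. Epi 8 and WT did not overlap in 25.7% of all tested genes in leaf and 13.3% in root. The share of all genes with opposite directions in leaf and root was not computed, so the count has no background. The difference, the Epi 8 effect in leaf minus that in root, was tested in edgeR's quasi-likelihood fit of all 27 libraries with Benjamini-Hochberg adjustment. The values were those of AT3G46320 (H4; -0.97, SE 0.488, FDR = 0.627), AT3G53730 (H4; -1.10, SE 0.276, FDR = 0.481), AT1G09200 (H3.1; -0.87, SE 0.457, FDR = 0.641) and AT5G10400 (H3.1; -0.67, SE 0.365, FDR = 0.643) on the log2 scale. They were joined by AT5G65360 (H3.1; -0.79, SE 0.360, FDR = 0.594), HTB2 (H2B; -0.69, SE 0.387, FDR = 0.652), HTB4 (H2B; -0.51, SE 0.179, FDR = 0.516) and AT3G53650 (H2B; -1.42, SE 0.448, FDR = 0.511). No FDR passed 0.05. Organ, age, growth conditions and sequencing depth differ together between leaf and root, and cannot be told apart in this difference.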

How the results depend on the processing

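For Epi 8 leaf against WT leaf, the 3 called members became 6 without a low-count filter, 13 with the likelihood ratio test, 15 with DESeq2 and 1 with only the 6 libraries of both groups, while 237, 638, 712 and 43 of all genes were called. With plant number as a replicate block 1 member was called. AT5G10400 and HTB1 were not called with the block (edgeR FDR = 0.0903 and 0.0703). Neither was called with only the 6 libraries (edgeR FDR = 0.0832 and 0.0716). With RLE scaling AT5G10400 was not called (edgeR FDR = 0.0503). Deviations of same-numbered Epi 8 and WT leaf plants correlated at 0.342, 0.0622 and 0.305 (pooled 0.238). Whether plant numbers pair these leaf samples was therefore not settled. The block changed no other call of a count. Leaving out each plant gave 0 to 4 calls in Epi 8 leaf, 0 in every other line comparison, 20 to 26 for WT leaf against floral stem, 25 to 29 for leaf against root and 24 to 30 for root against floral stem. For the Epi 8 effect in leaf minus floral stem it gave 0 to 16 calls, with 6 and 16 from single floral stem plants. The shares of all genes called with a plant left out are not given here. The likelihood ratio test called 1 member in Epi 8 against Epi 24 root and 1 in Epi 8 against Epi 10 leaf, and DESeq2 called 1 in the last. The shares of all genes called by these tests in these comparisons are not given here. Directions turned for 3 named genes when a plant was left out: the log2FC ranged over -0.16 to 2.63 for HIS1-3 in Epi 24 floral stem, -0.77 to 0.10 for AT3G45930 there and -1.175 to 0.50 for AT5G02570 in Epi 24 root, turned by Epi 24 floral stem plant 3, WT floral stem plant 1 and WT root plant 2 in that order. The log2 ratio of the replication-dependent sum to WT ranged, with a plant left out, over -0.46 to -0.30 in Epi 8 leaf, -0.29 to -0.14 in Epi 10 leaf, 0.17 to 0.24 in Epi 8 root, -0.16 to 0.05 in Epi 24 root, 0.07 to 0.46 in Epi 8 floral stem and -0.13 to 0.25 in Epi 24 floral stem. The cause of these changes was not tested.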
